A study of Mus musculus with 15 samples.

Results

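The 51 genes described here encode the machinery that copies DNA in S phase, from the origin recognition complex to the ligase that seals Okazaki fragments, together with 5 E2F transcription factors and both E cyclins. They were chosen by name for their role, with earlier results of these data known, and matched to the tables by Ensembl gene identifier. All 51 of 51 were measured, among 13669 genes in the KD4, KD6 and shScr libraries and among 13501 genes in the OE and EV libraries, so none was lost to the limit on low values that the tables carry.

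Levels were measured by bulk RNA-seq in 6DT1, a metastatic mouse mammary cancer line grown as a monolayer on plastic. There were 5 transduced and drug-selected lines with 3 libraries each, and each library came from a separate passage of its line. The OE line carried a Smarcd1 cDNA with a C-terminal Myc tag and was set against EV, which carried the empty vector, and both were selected with blasticidin. The KD4 and KD6 lines carried different short hairpins against Smarcd1 and were set against shScr, which carried a scrambled hairpin, and all 3 were selected with puromycin. Smarcd1 is a subunit of the SWI/SNF chromatin remodelling complex. Nothing in the sources used here says that a line was a single clone, and each was 1 transduced population, so what differs between lines by chance of transduction and what the transgene or hairpin did cannot be told apart. Because the 3 libraries of a line are passages of the same population, p-values measure the spread between passages only.

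Values were in CPM as the authors deposited them, a unit in which the reads of each library are scaled to a common total. Sequencing depth is unknown, and the listed genes summed to between 894250 and 923090 CPM in each library. Mitochondrially encoded genes took 5.71 to 6.71% of the summed CPM of OE and EV, and 4.47 to 5.64% of that of KD4, KD6 and shScr. One library, EV replicate 1, stood apart from the other OE and EV libraries on the first principal component, at 23.7 against -11.3 to -1.07. Changes below are differences in log2(CPM + 1), which understate the change of low genes, tested with limma with Benjamini-Hochberg adjustment over all genes of the table, and a gene is said to have risen or fallen at an adjusted p under 0.05.

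Before a cell divides, the origin recognition complex with Cdc6 and Cdt1 loads the MCM helicase onto origins in G1, and in S phase Cdc45 and the GINS complex turn that helicase on. Polymerase alpha-primase then lays primers, the clamp loader places PCNA rings on them, and polymerases delta and epsilon extend them. Many of these genes are transcribed from E2F-bound promoters at the G1 to S transition: E2F1, E2F2 and E2F3 act as activators once cyclin kinases release them from the retinoblastoma protein, E2F4 works mostly in repressor complexes with the related pocket proteins, and E2F8 is an atypical repressor that acts later in S phase. Cyclin E, made from Ccne1 or Ccne2, drives CDK2 at this transition and is itself an E2F target.

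Promoter windows from RefSeq, with 250 bases before and 50 bases after the gene start in the GRCm38.p6 build, were held for 41 of the 51 genes. Letters of an E2F site, searched as TTTCCCGC, TTTGGCGC, TTTCGCGC or TTTGCCGC on both strands, stood in a window of 16 of the 41 genes (39.0%), against 704 of 27025 genes in the whole table (2.61%). The letters of a CHR element, TTTGAA or TTCGAA, were found for 10 genes (24.4%), against 21.7% of all genes, and CCAAT was found in 26 (63.4%), against 41.1%. A match is a description of the letters and not evidence of a bound site. The windows below belong to members whose levels differed between lines in the comparisons that follow, with the E2F letters in capitals and each sequence read 5′ to 3′ on the strand of its gene.
Mcm5, chr8:75109311-75109408, plus strand: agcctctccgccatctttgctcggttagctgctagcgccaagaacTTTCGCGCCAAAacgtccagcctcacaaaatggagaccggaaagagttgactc
E2f2, chr4:136172294-136172323, plus strand: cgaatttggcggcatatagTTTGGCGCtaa
Lig1, chr7:13278841-13278870, plus strand: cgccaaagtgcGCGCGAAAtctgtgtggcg
Mcm3, chr1:20820275-20820304, minus strand: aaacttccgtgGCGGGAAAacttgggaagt
E2f3, chr13:29986064-29986119, minus strand: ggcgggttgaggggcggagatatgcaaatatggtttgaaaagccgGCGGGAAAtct

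In Mcm5 a pair of E2F matches overlap in 1 stretch that reads as an E2F site from either strand, beginning 153 bases before the gene start. The match in E2f3 begins 11 bases before its start, while those in E2f2, Lig1 and Mcm3 lie just past theirs, beginning at bases 40, 27 and 20, with a further match in Mcm3 from base 39. Of the 19 members that passed the test in any comparison below, 15 had a window, and 5 of these held a match, those printed above. The other 10 (E2f8, Rfc4, Pold2, Cdc45, Mcm2, Rpa1, Rpa2, Rrm1, Rrm2 and Tyms) had no match in their windows. Prim2, Mcm4, E2f4 and Rfc2 were not among the genes in the promoter table.

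Smarcd1 itself measured 70.4, 64.99 and 61.7 CPM in the OE libraries, against 31.9, 27.1 and 29.9 CPM in the EV libraries (log2 change 1.12, adjusted p = 0.00355, SE 0.07). It measured 9.07, 9.05 and 9.27 CPM in KD4, against 14.5, 16.5 and 15.04 CPM in shScr (log2 change -0.69, adjusted p = 0.000873, SE 0.08). In KD6 it measured 13.2, 14.8 and 15.1 CPM and overlapped shScr (log2 change -0.09, adjusted p = 0.701, SE 0.08). Without OE replicate 2 or EV replicate 3 the adjusted p of the OE difference was 0.0533 or 0.0520 by limma, with log2 changes of 1.06 to 1.17 over the fits that each left out 1 library. KD6 is used below as the name of a line, with no statement that its Smarcd1 was lower. The KD4 and KD6 comparisons share the same 3 shScr libraries.

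In KD4, most of the replication genes were slightly higher than in shScr, and 1 E2F factor, E2f8, was lower. Of the 51 genes, 47 were higher in KD4 than in shScr and 4 were lower, and the median log2 change was 0.15, against 0.00 over all genes tested. The change passed the test for 8 of them, of which 7 rose (Rfc4, E2f2, Pold2, Prim2, Lig1, Mcm5 and Mcm4) and 1 fell (E2f8). These 8 are 15.7% of the members, beside 9.58% of all genes, and the 7 that rose are 13.7%, beside 5.71% of all genes. For 24 members (47.1%) all 3 KD4 libraries lay above all 3 shScr libraries, which held for 15.9% of all genes. The median difference of the members from the shScr mean was 0.13, 0.18 and 0.16 in the 3 KD4 libraries, against -0.03, 0.05 and -0.02 in the shScr libraries themselves. In bulk libraries, a smaller or larger share of cells in S phase and less or more RNA per cell cannot be told apart.

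The count of 8 changed when single libraries were left out, and so did the share of all genes called, 9.58% in the full fit. Without KD4 replicate 2 none of the 8 passed, beside 5% of all genes. Without shScr replicate 1, shScr replicate 2 or shScr replicate 3 only 2 passed each time, beside 5.15, 4.69 and 5.74% of all genes. Without KD4 replicate 3 or KD6 replicate 2 there were 4, beside 7.38 and 7.15% of all genes. The median over the members stayed between 0.14 and 0.18 in every such fit.

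**Figure D1:**
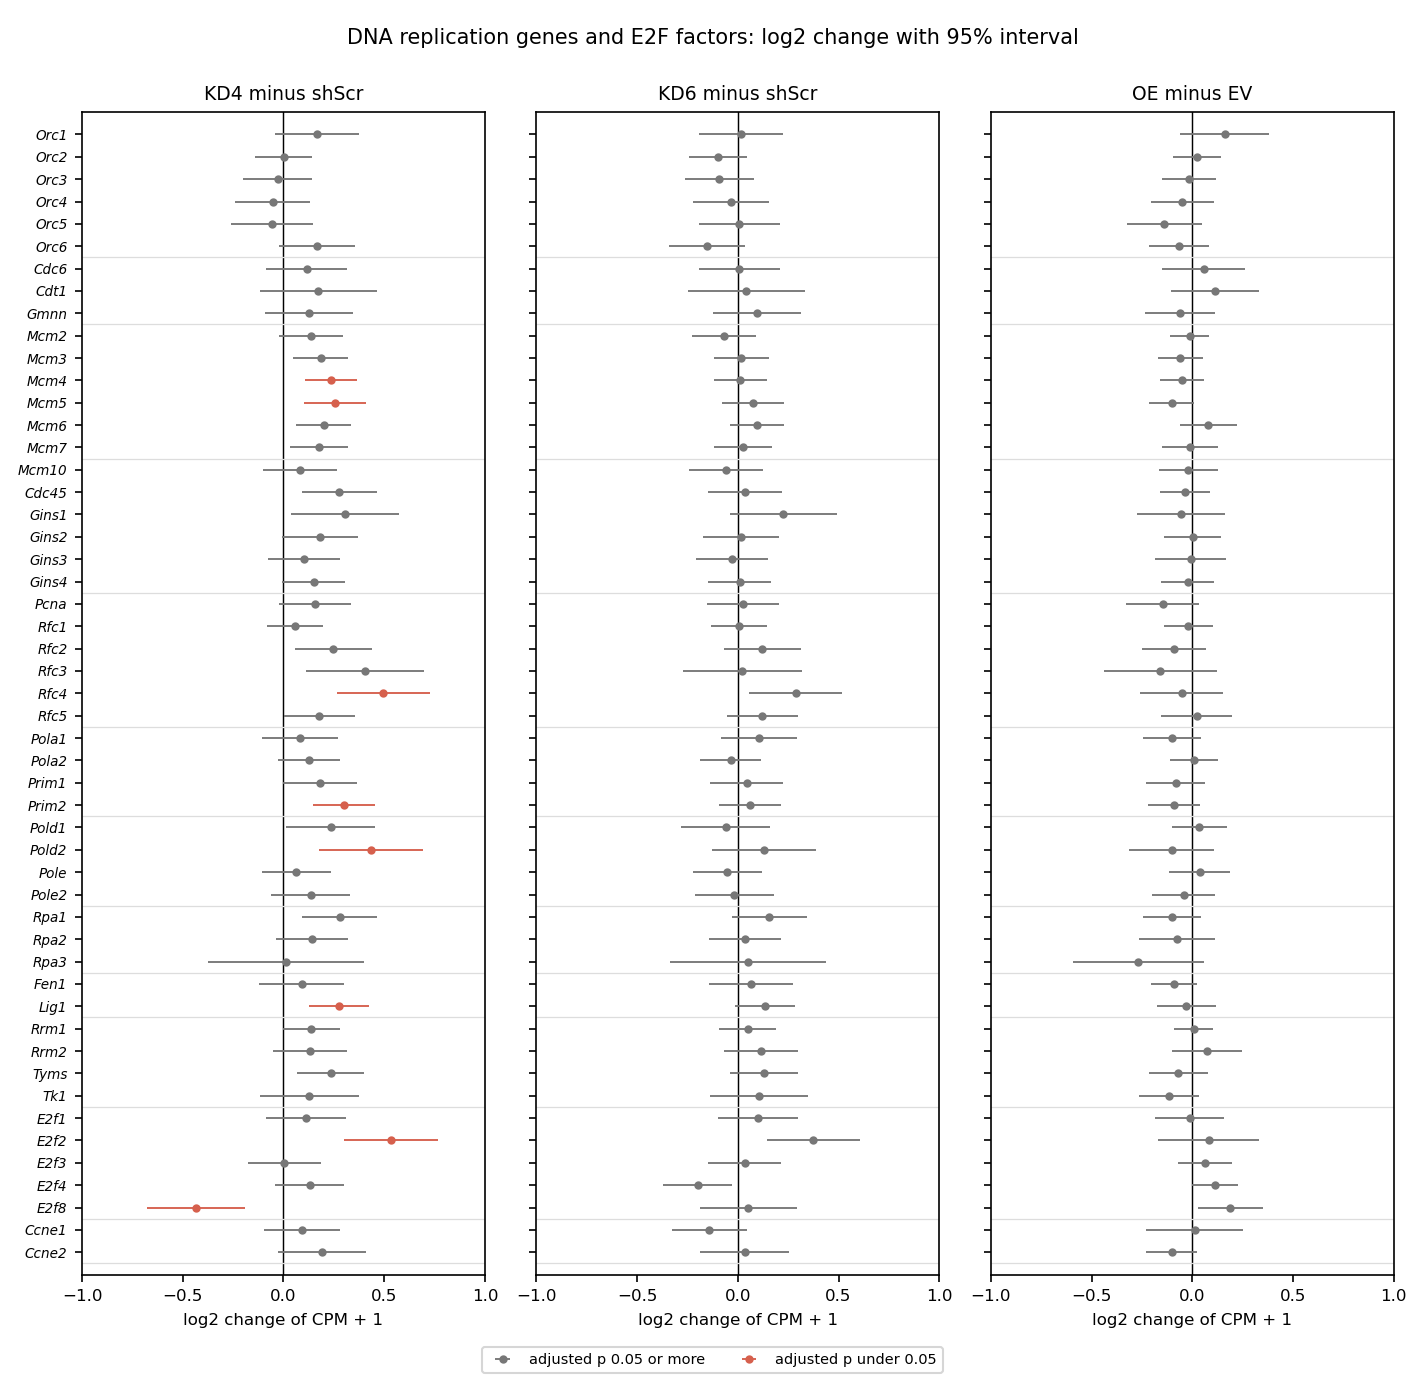
Log2 change of CPM + 1 for each of the 51 genes (rows, grouped by role from origin recognition at the top to cyclin E at the bottom) in KD4 against shScr, KD6 against shScr and OE against EV, with 95% intervals from limma; red marks an adjusted p under 0.05. In KD4, 47 of the 51 points lie right of 0, with E2f2 and Rfc4 farthest right at 0.53 and 0.50 and E2f8 farthest left at -0.43, whereas no point is red in the other panels.

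In the origin recognition complex the differences lay on both sides of 0. Of its 6 subunits 3 were higher and 3 lower in KD4, with a median log2 change of -0.01 and a range of -0.06 for Orc5 to 0.17 for Orc1, and none passed. The licensing factors Cdc6 and Cdt1 and the Cdt1 inhibitor geminin (Gmnn) had log2 changes of 0.11, 0.17 and 0.13, and none passed. The MCM helicase, the hexamer that unwinds DNA at the fork, had all 6 subunits higher in KD4, between 0.14 for Mcm2 and 0.26 for Mcm5, and for all 6 the KD4 libraries lay above every shScr library. Mcm4 measured 105, 107 and 108 CPM in KD4, against 91.2, 93.8 and 86.2 CPM in shScr (log2 change 0.24, adjusted p = 0.0323, SE 0.06). Mcm5 measured 62.8, 65.5 and 65.1 CPM in KD4, against 50.5, 57.7 and 53.5 CPM in shScr (log2 change 0.26, adjusted p = 0.0462, SE 0.07). Both rose with no overlap between lines. The other subunits missed the threshold. Mcm6 measured 139, 149.6 and 141 CPM in KD4, against 126, 126 and 122 CPM in shScr (adjusted p = 0.0677 by limma), and Mcm3 measured 74.2, 80.5 and 76.3 CPM in KD4, against 66.00, 69.9 and 66.8 CPM in shScr (adjusted p = 0.09 by limma).

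The factors that activate the helicase had small positive differences throughout. Mcm10, Cdc45 and the 4 GINS subunits were all higher in KD4, by 0.08 for Mcm10 to 0.30 for Gins1, and none of the 6 passed. Cdc45 came closest, with 21.8, 24.04 and 24.2 CPM in KD4, against 18.98, 20.2 and 18.1 CPM in shScr (adjusted p = 0.0647 by limma). Gins1 measured 3.62, 4.37 and 4.83 CPM in KD4, against 3.10, 3.49 and 3.16 CPM in shScr, also without overlap (adjusted p = 0.148 by limma).

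In the clamp loader, the small subunits had log2 changes of 0.18 to 0.50 in KD4 and the large subunit, Rfc1, had 0.06. Rfc4, a small subunit of replication factor C, rose, with 10.8, 13.9 and 13.2 CPM in KD4, against 9.27, 8.36 and 8.22 CPM in shScr (log2 change 0.50, adjusted p = 0.0149, SE 0.10). All 3 KD4 libraries were above every shScr library, though KD4 replicate 1 was the lowest of its line by a clear margin. Rfc3, Rfc2 and Rfc5 had log2 changes of 0.40, 0.25 and 0.18, and none of them passed, nor did Rfc1. Pcna, the sliding clamp that tethers polymerases to DNA, measured 94.96, 112 and 111 CPM in KD4, against 89.5, 101 and 93.7 CPM in shScr, and overlapped (adjusted p = 0.262 by limma).

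Of the polymerases, 1 primase subunit and 1 delta subunit rose. Prim2, the large subunit of primase, measured 23.3, 24.8 and 23.2 CPM in KD4, against 19.5, 19.1 and 18.7 CPM in shScr (log2 change 0.30, adjusted p = 0.0239, SE 0.07). The lines were well apart, since the lowest KD4 library exceeded the highest shScr library by more than the range within either line. Its partners Prim1, Pola1 and Pola2 had log2 changes of 0.18, 0.08 and 0.13 and did not pass. Pold2, an accessory subunit of polymerase delta, measured 38.6, 45.5 and 42.2 CPM in KD4, against 25.7, 32.6 and 34.9 CPM in shScr (log2 change 0.43, adjusted p = 0.0435, SE 0.12). Its spread was wide, with shScr replicate 1 far below the other shScr libraries, and without that library the log2 change was 0.31 with an adjusted p of 0.131 by limma. The catalytic subunits Pold1 and Pole had log2 changes of 0.23 and 0.06, Pole2 had 0.14, and none passed.

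Behind the fork, Lig1, the ligase that joins Okazaki fragments, rose in KD4. It measured 37.4, 39.1 and 35.2 CPM in KD4, against 29.5, 31.3 and 30.99 CPM in shScr, with no overlap (log2 change 0.27, adjusted p = 0.0291, SE 0.07). Fen1, the nuclease that trims the fragments first, had a log2 change of 0.09 and did not pass. The subunits of RPA, which coats single-stranded DNA, had log2 changes of 0.28 for Rpa1, 0.14 for Rpa2 and 0.01 for Rpa3. Rpa1 measured 117, 129 and 136 CPM in KD4, against 96.6, 112 and 105 CPM in shScr, without overlap, but missed the threshold (adjusted p = 0.064 by limma). The enzymes that supply deoxynucleotides, Rrm1 and Rrm2 of ribonucleotide reductase, thymidylate synthase (Tyms) and thymidine kinase (Tk1), were all higher in KD4 by 0.13 to 0.23 and none passed. Tyms was the closest, with 19.9, 20.9 and 20.7 CPM in KD4, against 16.6, 18.6 and 16.6 CPM in shScr (adjusted p = 0.0816 by limma).

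The E2F factors were the group that spread the most in KD4. E2f2, an activator, measured 25.8, 27.9 and 24.3 CPM in KD4, against 14.97, 19.6 and 18.6 CPM in shScr (log2 change 0.53, adjusted p = 0.0106, SE 0.11). It had the largest rise of the 51, with no overlap, and it stayed past the threshold in 8 of 9 fits that each left out 1 library, the exception being the fit without KD4 replicate 2 (adjusted p = 0.0504 by limma). E2f8, the atypical repressor, fell, with 27.3, 22.7 and 22.1 CPM in KD4, against 36.2, 29.5 and 32.7 CPM in shScr (log2 change -0.43, adjusted p = 0.033, SE 0.11). Every KD4 library was below every shScr library, and it was the only member for which that held (1.96%, against 13.6% of all genes). The other activators did not pass: E2f1 had a log2 change of 0.11, and E2f3, at 45.9, 41.7 and 38.3 CPM in KD4 and 39.1, 44.1 and 42.2 CPM in shScr, had a log2 change of 0.00 with a 95% interval of -0.18 to 0.19. E2f4 measured 98.3, 83.8 and 86.97 CPM in KD4 and 76.2, 81.7 and 87.5 CPM in shScr, with overlapping libraries (adjusted p = 0.336 by limma). Ccne1 and Ccne2 had log2 changes of 0.09 and 0.19 and did not pass.

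KD6 lay closer to shScr than KD4 did. Of the 51 genes 38 were higher and 13 lower than in shScr, with a median log2 change of 0.03 against 0.00 over all genes. None passed the limma test, while 2.91% of all genes did, and 3 (5.88%) had an unadjusted p under 0.05 (E2f2, Rfc4 and E2f4), against 15.3% of all genes. All 3 KD6 libraries lay above all 3 shScr libraries for 5 members (9.80%), against 12% of all genes. E2f2 measured 22.5, 25.03 and 22.04 CPM in KD6, above every shScr library (log2 change 0.37, adjusted p = 0.0966, SE 0.11). Rfc4 measured 10.6, 11.5 and 10.1 CPM in KD6, also above every shScr library (log2 change 0.29, adjusted p = 0.207, SE 0.10). Lig1, Mcm6 and Gins1 were the others above every shScr library. E2f4 measured 72.2, 71.9 and 69.01 CPM in KD6, below every shScr library (log2 change -0.20, adjusted p = 0.241, SE 0.08). Orc2 was also below, with 53.5, 52.5 and 53.2 CPM in KD6, against 56.7, 57.4 and 56.6 CPM in shScr (log2 change -0.10, adjusted p = 0.534, SE 0.06). These 2 are 3.92% of the members, against 10.2% of all genes. For 40 of the 51 members the 95% interval of the KD6 difference lay within 1.25-fold in either direction, and for 50 within 1.5-fold.

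Set directly against KD4, most of these genes were lower in KD6, by little. In KD6, 45 of the 51 members were lower than in KD4, with a median log2 difference of -0.13 against -0.00 over all genes, and for 20 members (39.2%) every KD6 library was below every KD4 library, which held for 10.8% of all genes. The difference passed the test for 2 members (3.92%), beside 4.91% of all genes. E2f8 was higher in KD6, with 30.7, 37.9 and 33.5 CPM, against 27.3, 22.7 and 22.1 CPM in KD4 (log2 change 0.49, adjusted p = 0.0297, SE 0.11). E2f4 was lower in KD6, with 72.2, 71.9 and 69.01 CPM, against 98.3, 83.8 and 86.97 CPM in KD4 (log2 change -0.33, adjusted p = 0.0354, SE 0.08). Neither gene's libraries overlapped. Orc6, the smallest ORC subunit, measured 31.3, 29.04 and 29.9 CPM in KD6, against 33.7, 38.8 and 40.96 CPM in KD4 (adjusted p = 0.0638 by limma), and Mcm4 measured 91.2, 93.6 and 88.8 CPM in KD6, against 105, 107 and 108 CPM in KD4 (adjusted p = 0.0588 by limma). The count of 2 became 0 without KD4 replicate 2, KD4 replicate 3, KD6 replicate 2 or KD6 replicate 3, became 1 without KD6 replicate 1 or shScr replicate 2, and stayed between 0 and 3 over the 9 fits. Over these fits 2.18 to 4.47% of all genes passed. Among KD4, KD6 and shScr, the line with the highest mean was KD4 for 44 members (86.3%), KD6 for 5 and shScr for 2, whereas KD4 was the highest line for 37.2% of all genes.

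**Figure D2:**
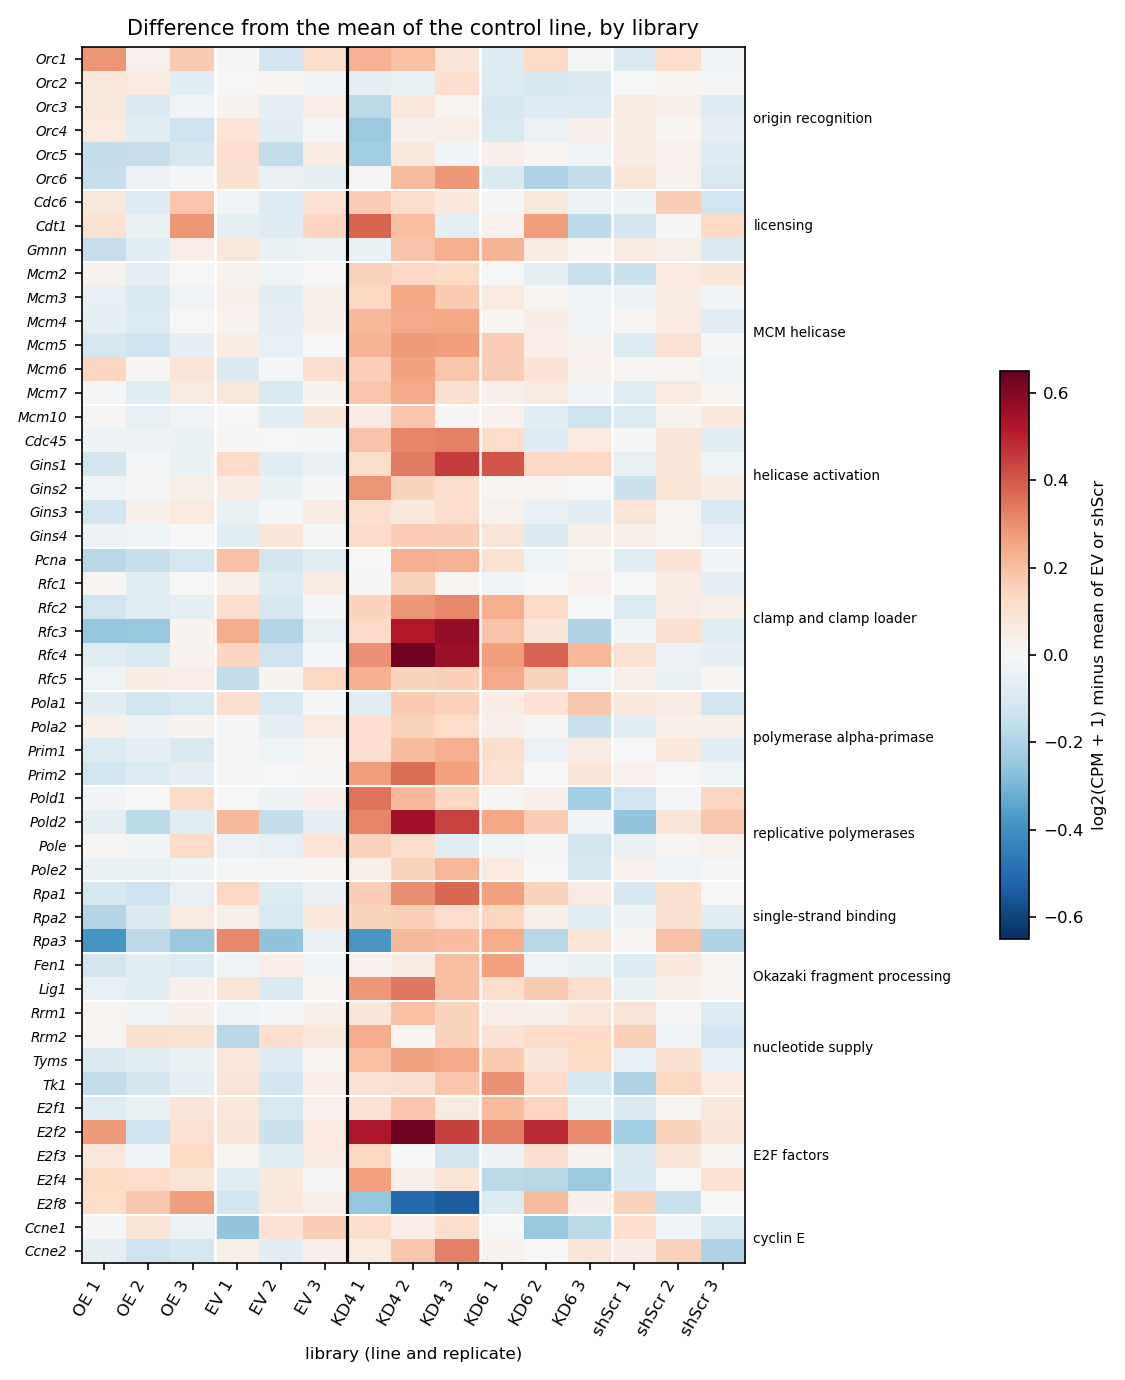
Difference of log2(CPM + 1) in each library (columns) from the mean of its control line (EV for OE and EV, shScr for KD4, KD6 and shScr) for the 51 genes (rows, grouped by role); red is higher and blue is lower. The 3 KD4 columns are red for most rows outside the origin recognition group, with medians of 0.13, 0.18 and 0.16, and blue for E2f8, while the KD6 medians are 0.06, 0.03 and -0.01.

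With the hairpin lines joined as 1 group of 6 libraries against shScr, as the study grouped them, Smarcd1 itself did not pass (log2 change -0.39, adjusted p = 0.268, SE 0.17). Of the 51 members 44 were higher and 7 lower, with a median log2 change of 0.09. Only E2f2 passed (1.96% of the members, beside 2.66% of all genes), and 9 members (17.6%) had an unadjusted p under 0.05, all higher, against 17.3% of all genes. E2f2 ranged over the 6 libraries of KD4 and KD6 from 22.04 to 27.9 CPM, with a median of 24.7 CPM, against 14.97, 19.6 and 18.6 CPM in shScr (log2 change 0.45, adjusted p = 0.0372, SE 0.10). The call was lost in 7 of 9 fits that each left out 1 library and held only without KD6 replicate 1 or KD6 replicate 3. E2f8 had a log2 change of -0.19 in this joined group (adjusted p = 0.571 by limma), which averages lines that differed from each other.

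In OE the replication genes lay near their EV levels. Of the 51 members 17 were higher and 34 lower than in EV, with a median log2 change of -0.03 against 0.01 over all genes. None passed the limma test, where 0.00741% of all genes did (1 gene), and 1 member, E2f8, had an unadjusted p under 0.05, against 12.955% of all genes. For 43 of the 51 members the 95% interval lay within 1.25-fold in either direction, and for 50 within 1.5-fold, the exception being Rpa3. E2f8 measured 37.9, 39.5 and 42.2 CPM in OE, against 31.97, 36.7 and 35.98 CPM in EV (log2 change 0.19, adjusted p = 0.331, SE 0.07). E2f4 measured 87.4, 86.8 and 84.8 CPM in OE, against 75.6, 83.6 and 80.3 CPM in EV (log2 change 0.11, adjusted p = 0.392, SE 0.05). These were the only members whose OE libraries all lay above the EV libraries (3.92%, against 11.3% of all genes). In 6 members (Mcm5, Cdc45, Prim1, Prim2, Pole2 and Fen1) every OE library was below every EV library, a share of 11.8%, near the 8.71% of all genes. Mcm5 measured 62.95, 61.9 and 65.4 CPM in OE, against 70.6, 65.6 and 68.4 CPM in EV (log2 change -0.10, adjusted p = 0.423, SE 0.05). Rpa3, the smallest RPA subunit, measured 7.97, 9.39 and 8.85 CPM in OE, against 13.5, 8.76 and 10.3 CPM in EV (log2 change -0.27, adjusted p = 0.464, SE 0.14), and Pcna measured 97.3, 99.5 and 102 CPM in OE, against 126, 101 and 105 CPM in EV (log2 change -0.15, adjusted p = 0.471, SE 0.08). In both, EV replicate 1 was the highest EV library.

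The control lines were themselves apart for these genes. This comparison used the transcript table, which holds all 15 libraries, with the transcripts of each gene summed and 1 fit over the 5 lines. Vector, drug and line cannot be told apart in it. In EV, 49 of the 51 members were higher than in shScr and 2 lower, with a median log2 difference of 0.17 against 0.02 over all genes. The difference passed for 12 members, all higher in EV (23.5%, beside 15.8% of all genes): the helicase subunits Mcm2, Mcm3, Mcm4 and Mcm5, the activators E2f2 and E2f3, Rfc2, Rpa1, Rpa2, and the deoxynucleotide enzymes Rrm1, Rrm2 and Tyms. Mcm5 had the smallest p, with 71.7, 63.00 and 65.2 CPM in EV, against 46.7, 54.2 and 51.1 CPM in shScr (log2 change 0.39, adjusted p = 0.00502, SE 0.08), and it passed in all 15 fits that each left out 1 library. Smarcd1 summed over transcripts also differed between these lines, with 32.4, 26.98 and 28.8 CPM in EV, against 14.1, 17.03 and 14.7 CPM in shScr (log2 change 0.90, adjusted p = 7.48e-05, SE 0.10). The count of 12 became 2 without EV replicate 1, 3 without EV replicate 3, 4 without shScr replicate 1 and 5 without shScr replicate 3. In those fits 7.39, 9.3, 7.63 and 9.5% of all genes passed, in that order.

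The other 11 members that passed were 1.13- to 1.37-fold higher in EV on the CPM + 1 scale. Mcm3 averaged 77.9 ± 4.23 CPM in EV and 65.7 ± 2.16 CPM in shScr (SD, n = 3 each). E2f2 averaged 24.4 ± 2.14 CPM in EV and 17.6 ± 2.39 CPM in shScr. Tyms averaged 18.4 ± 1.81 CPM in EV and 14.5 ± 1.47 CPM in shScr. E2f3 and Rrm2 had log2 differences of 0.31 and 0.26, and in each the highest shScr library came close to the lowest EV library. Rpa1 and Rpa2 had 0.32 and 0.27, Rfc2 0.28, Mcm4 0.20, Mcm2 0.20 and Rrm1 0.17.

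Because the control lines lay apart, each hairpin line was also set against EV, a comparison added after the values had been seen and one in which hairpin, vector and drug cannot be told apart. Against EV the KD4 members had a median log2 difference of -0.01, with 23 higher and 28 lower, and 3 passed (5.88%, beside 17.2% of all genes). Cdc45 was higher in KD4, with 23.2, 22.7 and 23.4 CPM, against 18.5, 18.8 and 19.1 CPM in EV (log2 change 0.28, adjusted p = 0.0124, SE 0.07). E2f8 was lower in KD4, with 25.6, 21.4 and 20.6 CPM, against 31.2, 35.3 and 35.5 CPM in EV (log2 change -0.58, adjusted p = 0.00145, SE 0.10). E2f3 was lower in KD4, with 37.6, 32.6 and 34.4 CPM, against 43.6, 37.04 and 48.5 CPM in EV (log2 change -0.29, adjusted p = 0.043, SE 0.09). The lines did not overlap for Cdc45 and E2f8, which both passed in all 15 fits that each left out 1 library, but did for E2f3, which passed in 6 of the 15. KD6 had a median log2 difference of -0.13 against EV, with 45 members lower, and 4 fell below EV, all helicase subunits (7.84%, beside 6.41% of all genes): Mcm2 (-0.26), Mcm3 (-0.21), Mcm4 (-0.18) and Mcm5 (-0.31). None of the 4 passed without EV replicate 1, EV replicate 3, KD6 replicate 2 or KD6 replicate 3, and only 2 passed without any single OE library. Of all genes, 2.16 to 2.59% passed in the fits without those EV or KD6 libraries, and 4.73 to 5.42% without an OE library.

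Summed over the 51 genes, OE, EV and KD4 lay above KD6 and shScr, by a narrow margin. The member transcripts summed to 2426, 2375 and 2482 CPM in OE, 2508, 2375 and 2521 CPM in EV, 2378, 2467 and 2472 CPM in KD4, 2319, 2245 and 2135 CPM in KD6, and 2146, 2246 and 2146 CPM in shScr. Every OE, EV and KD4 library was above every KD6 and shScr library. The nearest were OE replicate 2, at 2375 CPM, and KD6 replicate 1, at 2319 CPM, while KD6 itself ran from 2135 to 2319 CPM. Smarcd1 was highest in OE, next in EV, and lowest in KD4, and its relation to these sums was not tested. No test was made on the sums.

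**Figure D3:**
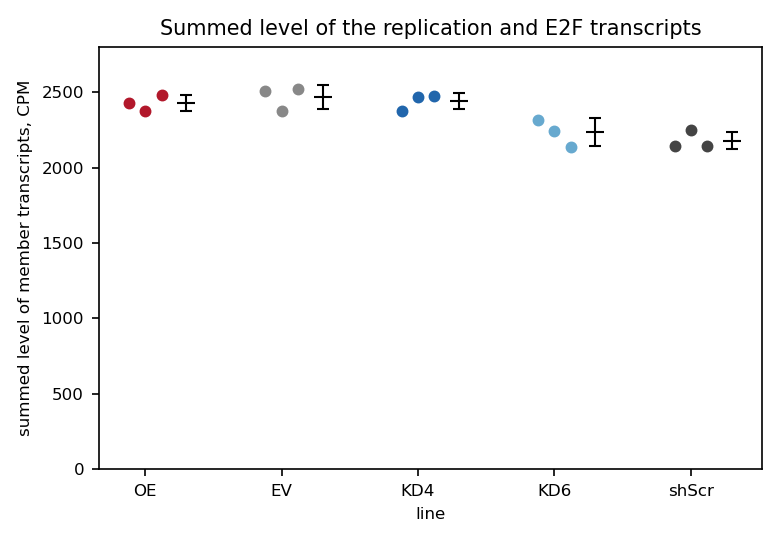
Summed level of the transcripts of the 51 genes in CPM in each library (dots), with the mean and SD of the 3 libraries of a line (bars), for OE, EV, KD4, KD6 and shScr. OE, EV and KD4 average 2427, 2468 and 2439 CPM, and KD6 and shScr average 2233 and 2179 CPM.

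For 5 members all 3 KD4 libraries stood apart from those of every other line, with E2f8 below them (1.96% of members, against 3.38% of all genes) and Cdc45, Gins4, Prim2 and Lig1 above them (7.84%, against 3.52%). Over its summed transcripts E2f8 averaged 38.2 ± 1.67 CPM in OE, 33.99 ± 2.41 CPM in EV, 22.5 ± 2.69 CPM in KD4, 32.5 ± 3.15 CPM in KD6 and 30.7 ± 3.22 CPM in shScr (SD, n = 3 each). The highest KD4 library, at 25.6 CPM, was below the lowest library of the other lines, at 27.4 CPM in shScr replicate 2. The OE libraries lay above the EV libraries, and EV, KD6 and shScr overlapped. For E2f2 the line that stood apart was shScr, below every other line (1.96% of members, against 3.2% of all genes). E2f2 averaged 26.05 ± 3.76 CPM in OE, 24.4 ± 2.14 CPM in EV, 25.8 ± 1.80 CPM in KD4, 22.9 ± 1.74 CPM in KD6 and 17.6 ± 2.39 CPM in shScr. Its lowest library outside shScr, at 21.7 CPM, was above the highest shScr library, at 19.4 CPM.

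**Figure D4:**
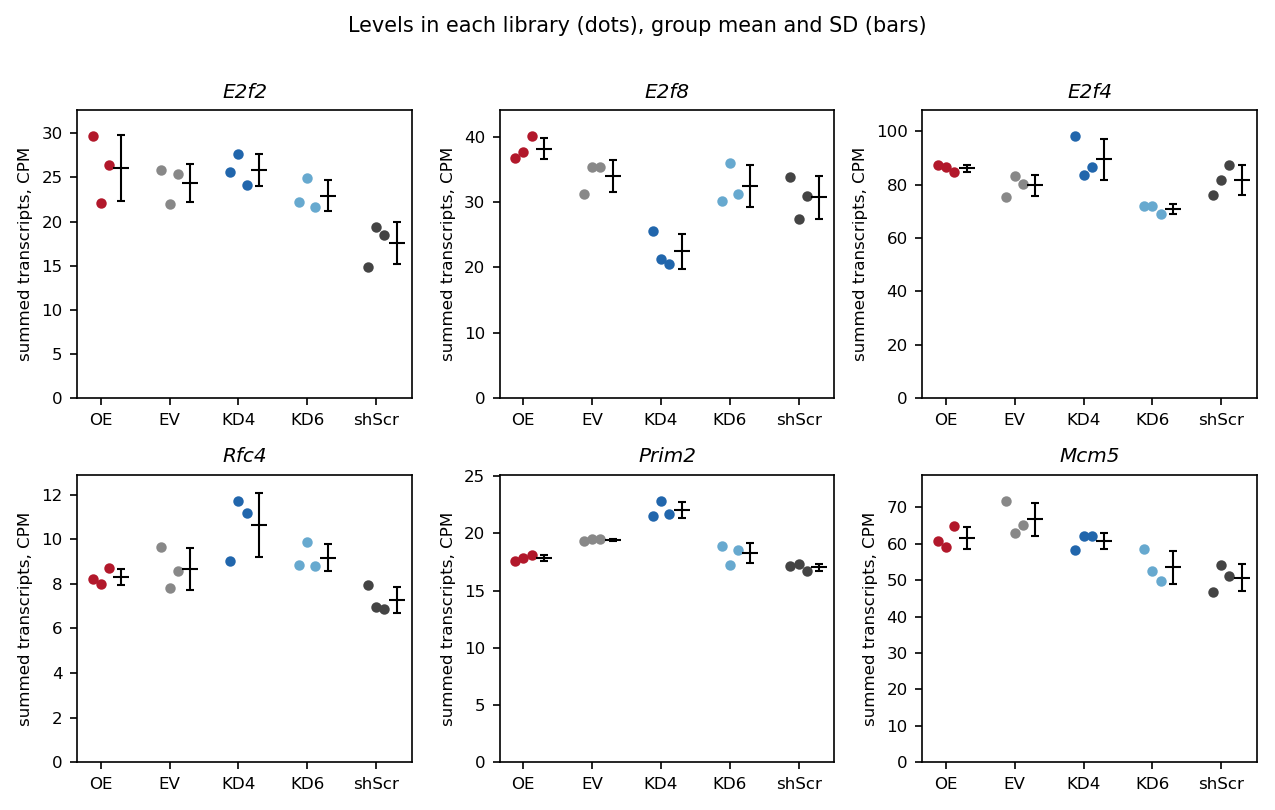
Summed transcript level in CPM of E2f2, E2f8, E2f4, Rfc4, Prim2 and Mcm5 in each library (dots), with the mean and SD of each line (bars), for OE, EV, KD4, KD6 and shScr. E2f8 is lowest in KD4 at 22.5 CPM and E2f2 is lowest in shScr at 17.6 CPM, each without overlap with the other lines.

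The OE change from EV was set against the hairpin change from shScr, as the first minus the mean of the KD4 and KD6 changes, although Smarcd1 did not pass in KD6. Of the 51 members 44 had a negative difference, with a median of -0.12 against -0.01 over all genes, and 1 passed (1.96%, beside 1.9% of all genes). That member was Prim2, whose summed transcripts measured 17.6, 17.8 and 18.1 CPM in OE and 19.3, 19.5 and 19.5 CPM in EV, and 21.5, 22.8 and 21.7 CPM in KD4, 18.9, 17.3 and 18.6 CPM in KD6 and 17.1, 17.3 and 16.7 CPM in shScr (log2 difference -0.34, adjusted p = 0.0443, SE 0.08). Every OE library was below every EV library and every KD4 library above every shScr library, while KD6 overlapped shScr in 1 library. The call was lost in 13 of 15 fits that each left out 1 library, and adjusted p ran from 0.0404 to 0.115 over them by limma. Rfc4 and Lig1 had differences of -0.45 and -0.27 and did not pass.

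The 51 genes were listed with 126 annotated transcripts, 1 each for 16 genes and up to 7 for the rest. In OE against EV none of the 126 passed, as none of all 30220 transcripts did (0%), and 3 had an unadjusted p under 0.05 by limma. In KD6 against shScr none passed, beside 0.979% of all transcripts, and 6 had an unadjusted p under 0.05. At that level there were 27 in KD4 against shScr, and the share of all transcripts at it was not taken for these comparisons. In KD4 against shScr 5 passed (beside 3.62% of all transcripts): the single listed transcripts of Mcm4, Rfc4, Prim2 and E2f2 rose, and 1 transcript of Ccne2 fell. That Ccne2 transcript, ENSMUST00000170901, was a minor one, with 0.0811, 0.364 and 0.917 CPM in KD4, against 2.50, 2.51 and 1.53 CPM in shScr (log2 change -1.15, SE 0.24, adjusted p = 0.0170 by limma). It made up 1.40% of the summed Ccne2 transcripts in KD4 and 7.27% in shScr. The main Ccne2 transcript, ENSMUST00000108324, measured 25.1, 26.7 and 28.7 CPM in KD4, against 23.1, 25.6 and 20.6 CPM in shScr, and overlapped. The count of 5 became 1 without KD4 replicate 2, 2 without shScr replicate 1 or shScr replicate 3, and 3 without shScr replicate 2 or KD4 replicate 3. How reads were shared between transcripts of a gene is not given in the sources used here.

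Neighbouring pathways were read in the same comparison of KD4 with shScr. Of all genes in it, 9.58% passed, 5.71% rose and 24.7% had an unadjusted p under 0.05 by limma. The lists are short and each held few calls, so the genes named are single genes and not a result about their list. Among 22 measured regulators of E2F and the retinoblastoma family, 17 were higher, with a median of 0.10, and 6 had an unadjusted p under 0.05 by limma. Of them 2 rose and none fell. These were Cdkn2c, an inhibitor of CDK4 and CDK6, with 12.1 ± 0.451 CPM in KD4 and 8.25 ± 0.308 CPM in shScr (log2 change 0.50, adjusted p = 0.00357), and Rbl1, a pocket protein that binds repressor E2Fs, with 24.1 ± 1.60 CPM in KD4 and 18.2 ± 0.401 CPM in shScr (log2 change 0.38, adjusted p = 0.0116). None of 27 other replisome and initiation factors passed, with a median of 0.06 and 2 at an unadjusted p under 0.05 by limma, and Pold3, a further polymerase delta subunit, was closest with 57.9 ± 3.52 CPM in KD4 and 49.1 ± 2.89 CPM in shScr (log2 change 0.23, adjusted p = 0.0693). Of 11 chromatin assembly genes 10 were higher, with a median of 0.18, beside 0.15 for the 51 members. Among them Uhrf1, which recruits the maintenance DNA methyltransferase to new DNA, rose with 149 ± 3.49 CPM in KD4 and 128 ± 6.04 CPM in shScr (log2 change 0.22, adjusted p = 0.0441). Other nucleotide synthesis enzymes were split: of 24 measured, 10 were higher and 14 lower, and 8 had an unadjusted p under 0.05 by limma. Paics of the purine pathway rose with 284 ± 13.6 CPM in KD4 and 234 ± 14.1 CPM in shScr (log2 change 0.28, adjusted p = 0.0266), while Impdh1, which opens the guanine nucleotide branch, fell with 54.2 ± 6.30 CPM in KD4 and 84.04 ± 10.02 CPM in shScr (log2 change -0.62, adjusted p = 0.00449) and Nme1, a nucleoside diphosphate kinase, fell with 62.6 ± 1.63 CPM in KD4 and 80.7 ± 4.51 CPM in shScr (log2 change -0.36, adjusted p = 0.0066). None of 10 checkpoint genes passed, with a median of 0.00 and 3 at an unadjusted p under 0.05 by limma, all lower. Of 20 genes of G2 and mitosis 12 were higher and 8 lower, with a median of 0.04, and only Ccna2, cyclin A2, rose, with 69.3 ± 6.04 CPM in KD4 and 55.97 ± 2.79 CPM in shScr (log2 change 0.30, adjusted p = 0.0405).

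Between the hairpin lines, E2f5, a repressor E2F, was higher in KD6, with 9.89 ± 0.394 CPM in KD6 and 7.25 ± 0.709 CPM in KD4 (log2 change 0.40, adjusted p = 0.0367), and Rbl1 was lower in KD6, with 19.2 ± 0.899 CPM in KD6 and 24.1 ± 1.60 CPM in KD4 (log2 change -0.31, adjusted p = 0.0415). Impdh1 and the phosphatase gene Cdc25b were higher in KD6, with log2 differences of 0.43 and 0.37, and Ccnb2, cyclin B2, was lower in KD6 with a log2 difference of -0.43 (adjusted p = 0.0394, 0.0289 and 0.0381 by limma, in that order). These are single genes of the lists, beside 4.91% of all genes that passed between the hairpin lines. Of the 22 regulators 19 were lower in KD6, and 9 had an unadjusted p under 0.05 by limma, beside 17.4% of all genes. Of the 11 chromatin assembly genes 10 were lower, with a median log2 difference of -0.10, and none had an unadjusted p under 0.05. Other nucleotide enzymes and mitosis genes leaned the other way, with 15 of 24 and 12 of 20 higher. In KD6 against shScr, 1 gene of these lists passed, beside 2.91% of all genes. Rad1, a subunit of the checkpoint clamp, fell with 10.4 ± 0.399 CPM in KD6 and 13.3 ± 0.311 CPM in shScr (log2 change -0.32, adjusted p = 0.0475). In OE against EV no gene of the 6 lists passed, and 1 to 3 genes of each had an unadjusted p under 0.05 by limma.

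Few markers of cell identity were measured, and the epithelial ones did not move together in KD4. Of 16 mammary epithelial markers 5 were among the genes analysed here, without Epcam and Cdh1, and summed to 830.4 to 1008 CPM in KD4, 788.9 to 974.7 CPM in KD6 and 755.1 to 828.6 CPM in shScr, most of it from Krt8 and Krt18. Of these 5, 2 were higher and 3 lower in KD4 than in shScr, and 1 passed. Krt19, a luminal keratin, fell in KD4, with 12.9 ± 0.871 CPM in KD4 and 22.5 ± 0.875 CPM in shScr (log2 change -0.76, adjusted p = 0.00106). Krt18 and Krt8 had log2 changes in the other direction, of 0.31 and 0.15, and did not pass. Of 7 fibroblast markers only Pdgfra was among the genes analysed, at 7.12 to 7.75 CPM in KD4, 4.42 to 5.11 CPM in KD6 and 2.54 to 3.55 CPM in shScr, and it rose in KD4 (log2 change 1.05, adjusted p = 0.000458 by limma). The only immune marker of 7 was Cd68, at 27.4 to 35.1 CPM in KD4 and 32.3 to 38.7 CPM in shScr, and no endothelial or adipocyte marker was among the genes of these libraries. The part of these differences in the levels of the replication genes was not tested.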

How the data were processed

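RNA-seq was made from 5 lines of 6DT1 cells with 3 libraries each (15 libraries). The deposited values were CPM per gene in separate OE and EV and KD4, KD6 and shScr tables, and CPM per transcript in 1 table of all libraries. The labels name STAR 2.7.8a and the mm39 build whereas the study's methods name Tophat, mm9 and Partek Genomics Suite, so which path made the CPM values is not settled. The authors' CPM values were fractional, with no step of 1 read, so depth is unknown and no count test was run. Every gene's geometric mean was at least 1.00 CPM, so a limit on low values had been applied. Another 15 columns of the transcript table match no sample here and were not used.

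Symbols were matched by Ensembl identifier (87.3% of genes in the hairpin table and 88.1% in the OE and EV table). Values were taken as log2(CPM + 1) and fitted in R 4.3.3 with limma 3.58.1 (empirical Bayes with an intensity trend), with Benjamini-Hochberg adjustment over all genes or transcripts and a threshold of 0.05. OE and EV were fitted alone, KD4, KD6 and shScr as 3 groups, and comparisons across tables on summed transcripts of 13142 genes in all 15 libraries. The sum was within 5% of the gene value in every library for 15 of the 51 members. The fits were also run on simulated data with independent noise in each library. Such data hold no variation shared between libraries, and their results are not used here. Promoter letters came from RefSeq windows (Python 3.11.15). Library values are given for each member that passed in any comparison and for the 5 members with the smallest p in each, and up to 4 genes with the smallest p are named from each other list. The members and lists were chosen with earlier results of these data known. Alternatives were a pseudocount of 0.1 CPM, median-of-ratios or quantile scaling, a minimum mean of 5 CPM, an adjusted p under 0.1, the replicate number as a block, the mean of the hairpin lines in the fit of 3 groups, and leaving out each library.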

Additional observations from a re-analysis of the deposited data

Results flagged for a closer look

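In the 6 libraries of the hairpin lines taken as 1 group, a single library stood far from the others for 3 of 52 genes examined (the 51 members and Smarcd1), where chance gives about 1 in 20. Orc2 measured 61.5 CPM in KD4 replicate 3, against 52.5 to 55.0 CPM in the other 5. Orc5 measured 13.98 CPM in KD4 replicate 1, against 16.3 to 17.5 CPM in the others. Rfc1 measured 121 CPM in KD4 replicate 2, against 108 to 111 CPM in the others. These genes had no call in any comparison.

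The hairpin lines differed from each other by test in E2f4 (log2 difference of KD6 from KD4 -0.33, adjusted p = 0.0354), E2f8 (0.49, adjusted p = 0.0297) and Smarcd1 (0.60, adjusted p = 0.00292), all by limma. The effect of OE and that of the hairpin lines differed by test in Prim2 (-0.34, adjusted p = 0.0443) and in Smarcd1 (0.86, adjusted p = 0.00391), by limma.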

How the results depend on the processing

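At an adjusted p under 0.1 in place of 0.05, members called numbered 2 for both hairpin lines joined against shScr, 14 for KD4 against shScr, 1 for KD6 against shScr, 5 for KD6 against KD4, 19 for EV against shScr, 7 for KD4 against EV and 7 for KD6 against EV, and 9 transcripts were called in KD4. The share of all genes at that threshold was not taken, so these counts stand without it. With the mean of the hairpin lines from the fit of 3 groups, 2 members passed in the joined comparison and the Smarcd1 log2 change of -0.39 passed (adjusted p = 0.0130 by limma). With quantile normalization no member passed for the OE effect minus the hairpin effect. Replicate numbers gave no sign of pairing, since deviations of same-numbered libraries correlated between -0.378 and 0.279. Those of differently numbered libraries correlated between -0.453 and 0.476. The highest were KD6 replicate 3 with shScr replicate 1 (0.476) and KD4 replicate 3 with KD6 replicate 1 (0.455). A block by replicate number does not take up variation shared by such pairs. Deviations shared by libraries of different lines were not part of the main fits. With the replicate number as a block, members called numbered 0 in the joined comparison (beside 0.834% of all genes), 1 for KD4 (4.58%), 0 for KD6 against KD4 (2.55%), 3 for EV against shScr (7.53%), 0 for KD6 against EV (2.02%), 0 for the difference of effects (0.327%), and 1 transcript in KD4. Leaving out each library in turn gave 0 to 1 members called in the joined comparison, 0 to 8 for KD4, 0 to 3 for KD6 against KD4, 2 to 13 for EV against shScr, 2 to 4 for KD4 against EV, 0 to 6 for KD6 against EV, 0 to 2 for the difference of effects and 1 to 5 transcripts in KD4, a KD6 median of 0.00923 to 0.0727, and an OE Smarcd1 change of 1.06 to 1.17. The share of all genes called moved in these fits too. It ran from 0.673 to 2.9% in the joined comparison, 4.69 to 9.58% for KD4 and 2.18 to 4.47% for KD6 against KD4. For EV against shScr it was 7.39 to 18.3%, for KD4 against EV 9.88 to 18.6% and for KD6 against EV 2.16 to 8.93%. For the difference of effects it was 0.692 to 3.13%. No called value changed sign under these alternatives, and the OE and KD6 counts against their controls stayed at 0 under every other alternative. Depth is unknown, so what it limits cannot be stated. The number of libraries, 3 a line, limits precision.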
